A study of Mus musculus with 2 samples.

Results

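The genes described here encode the core of the spliceosome, the SR proteins and the heterogeneous nuclear ribonucleoproteins (hnRNPs), as expressed in endocrine progenitor cells sorted from the embryonic mouse pancreas. They were chosen by symbol alone: numbered Srsf symbols, symbols beginning with Hnrnp, numbered Sf3a and Sf3b symbols, U2af symbols and numbered Prpf symbols. Snrp and Snrnp genes of the small nuclear ribonucleoproteins (snRNPs) and the helicase genes Ddx5, Ddx17, Ddx23, Ddx39b and Ddx46 were also taken. Related genes listed under other symbols fall outside the rule, such as Hnrpll, Hnrpdl and Sf3b6, which is listed as 0610009D07Rik. The rule found 76 genes among the 23284 symbols of each file. RNA was sequenced from GFP-positive cells of NGN3-EGFP embryos of mixed C57BL6 strain at e15.5, in mid to late gestation, which were sorted after whole pancreata had been dissociated. The 2 libraries, replicates 1 and 2, belong to the only group, so levels are described and no condition is compared. The labels do not say how the EGFP reporter was inserted, how many embryos were pooled or whether each replicate had its own litter. Technical and biological spread between the libraries therefore cannot be told apart.

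Pre-mRNA splicing removes introns in a cycle of assembly and rearrangement. The U1 snRNP pairs with the 5′ splice site and the U2 snRNP with the branch point, the tri-snRNP of U4, U6 and U5 then joins, and RNA helicases drive the change to the catalytic form. SR proteins, which carry domains rich in arginine and serine, mostly favour the use of nearby exons, while many hnRNPs bind introns or exons and oppose it, and the balance of these families is known to shape alternative splicing. Many genes of both families also adjust their own level through exons that send the transcript to decay, which counts per gene cannot show.

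The libraries held 12495143 and 12043734 counted reads, so that in CPM, the reads of a gene scaled to a common library total, 1 read was worth 0.0804 in replicate 1 and 0.0827 CPM in replicate 2. Markers of the endocrine lineage were present, with Neurog3, the regulator after which the reporter is named, at 735.5 and 551.5 CPM. All 6 endocrine markers examined reached 1 CPM in both libraries, with summed levels of 25250 and 38990 CPM in replicates 1 and 2. Most of these sums came from the hormone genes Gcg, at 14060 and 24070 CPM, and Ins1, at 8377 and 12400 CPM. Gcg, Ins1 and Chga were higher in replicate 2, and Neurog3, Insm1 and Neurod1 in replicate 1. The 4 acinar markers summed to 1564 and 1213 CPM, mostly from Ctrb1 at 1321 and 986 CPM, above Neurog3 in both libraries. The 4 duct markers summed to 281 and 227 CPM, the 4 mesenchymal markers to 237 and 88.0 CPM and the 3 endothelial markers to 15.8 and 0.83 CPM. All acinar and duct markers reached 1 CPM in both libraries, mesenchymal ones did so for 4 in replicate 1 and 3 in replicate 2, and endothelial ones for 1 and 0. Of the 3 blood markers, Hbb-b1 and Hba-a1 had no read and Ptprc had 0.08 CPM in replicate 2 only. The splicing genes are used by every cell type, and the part of these other cells in their levels was not tested. In sorted pools of cells, fewer cells of a type and less RNA per cell cannot be told apart.

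All 76 splicing genes were expressed in both libraries. Each reached 1 CPM in replicate 1 and in replicate 2, against 45.7% of all genes, and the lowest value of any in either library was 1.65 CPM. In both libraries 66 of the 76 reached 10 CPM, 30 reached 100 CPM and 3 reached 1000 CPM, against 32.4%, 7.85% and 0.232% of all genes. The median over the 76 genes was 81.1 CPM in replicate 1 and 80.7 CPM in replicate 2, beside 36.6 and 36.3 CPM over the 10651 genes at or above 1 CPM in both. Together they took 1.62% of reads in replicate 1 and 1.70% in replicate 2. The 5 with the most reads, Hnrnpa2b1, Ddx5, Hnrnph1, Ddx17 and Prpf8, made up 35.9% and 36.0% of those reads.

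The most abundant splicing gene was Hnrnpa2b1, whose product binds nuclear RNA in splicing and takes part in mRNA transport. It had 2072 CPM in replicate 1 and 1940 CPM in replicate 2, and ranked 20th and 21st among all genes by CPM. For comparing genes, CPM was divided by the length of exon in kilobases (CPM per kb). On that scale Hnrnpa2b1 was at 824 ± 38.5 (SD, n = 2, as for all values with ±), Hnrnph1, which binds runs of G, at 421 ± 4.57, the helicase gene Ddx5 at 364 ± 5.70, and Srsf2, an SR protein that promotes exon inclusion, at 351 ± 14.4. The values of the libraries did not overlap between Hnrnpa2b1 and Hnrnph1 or between Hnrnph1 and Ddx5, but those of Ddx5 and Srsf2 did. Over the whole order of 76 genes, 67 of 75 neighbouring pairs overlapped, so most single steps in the order are not resolved. Per kb of coding sequence Hnrnpa2b1 and Srsf2 ranked 1 and 2, Srsf3 ranked 3, Hnrnph1 ranked 4 and Ddx5 ranked 6.

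**Figure D1:**
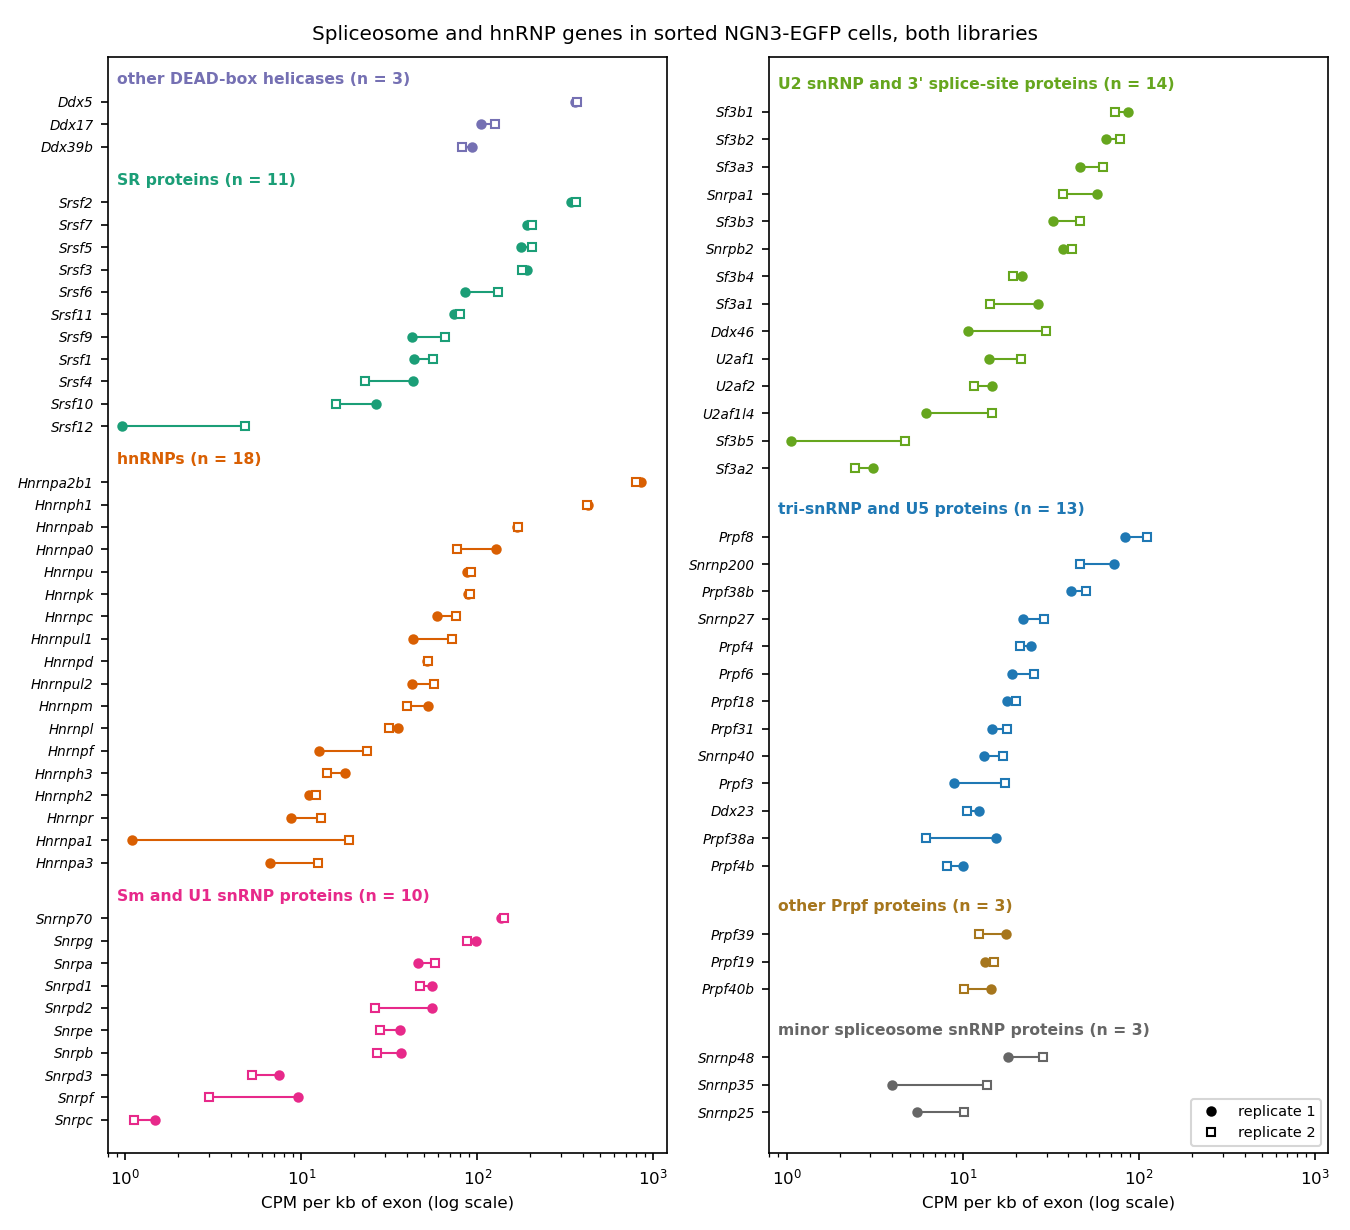
CPM per kb of exon on a log scale for 75 of the 76 genes, grouped by role, with replicate 1 as a filled circle, replicate 2 as an open square and a line joining them. Hnrnpa2b1 lies farthest right at a mean of 824 and Snrpc has the lowest mean at 1.29, and the joining line is longest for Hnrnpa1.

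Promoters are shown for the hnRNP gene and the SR protein gene with the highest level per kb, and for Srsf7, the highest of the splicing genes with an ETS motif. The 250 bases before the annotated start are printed 5′ to 3′ on the strand of the gene, from RefSeq on GRCm38.p6, and capitals mark matches on either strand to the motifs searched. These motifs were the ETS motif CCGGAAG, the TATA motif TATAAA, the CCAAT box and the GC box GGGCGG, and longer NRF1 and YY1 motifs with no match in these windows.
Hnrnpa2b1, chr6:51469895-51470144, minus strand: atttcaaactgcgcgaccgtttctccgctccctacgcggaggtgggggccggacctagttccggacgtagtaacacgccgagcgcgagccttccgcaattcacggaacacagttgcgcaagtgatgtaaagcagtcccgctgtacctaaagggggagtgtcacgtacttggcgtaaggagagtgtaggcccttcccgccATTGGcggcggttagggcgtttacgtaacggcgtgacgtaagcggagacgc
Srsf2, chr11:116853095-116853344, minus strand: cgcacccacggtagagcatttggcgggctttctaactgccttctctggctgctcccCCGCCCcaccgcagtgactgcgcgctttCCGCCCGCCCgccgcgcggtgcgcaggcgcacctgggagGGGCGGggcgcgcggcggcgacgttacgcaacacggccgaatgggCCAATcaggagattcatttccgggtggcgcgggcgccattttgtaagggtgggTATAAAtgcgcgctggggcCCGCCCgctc
Srsf7, chr17:80207306-80207555, minus strand: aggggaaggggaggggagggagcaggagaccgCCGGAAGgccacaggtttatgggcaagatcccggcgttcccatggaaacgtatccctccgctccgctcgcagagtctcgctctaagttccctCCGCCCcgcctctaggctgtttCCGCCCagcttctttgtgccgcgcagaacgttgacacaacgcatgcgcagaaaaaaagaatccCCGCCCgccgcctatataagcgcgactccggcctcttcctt

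The Hnrnpa2b1 window holds only a CCAAT box, read on the other strand as ATTGG. The Srsf2 window holds GC boxes, of which a pair overlap, a CCAAT box and a TATA motif near the start, and the Srsf7 window holds an ETS motif and GC boxes. Windows were found for 66 of the 76 splicing genes. Of these 20, or 30.3%, held the ETS motif, against 14.6% of 7687 windows of genes at or above 1 CPM in both libraries and 9.06% of 15701 windows in all. The GC box was in 66.7% of splicing gene windows, 61.9% of those of expressed genes and 43.8% of all windows. The CCAAT box was in 43.9%, 36.8% and 36.2% in the same order, and TATAAA in 9.09%, 5.91% and 1883 of 15701 windows. The NRF1 motif was found in 1 of the 66 windows and the YY1 motif in none. The median ratio of observed to expected CpG was 0.917 in splicing gene windows, 0.756 in those of expressed genes and 0.55 in all. These are matches of letters only and were not tested.

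The starts of splicing genes often lay close to that of a neighbour read in the opposite direction. Within 1000 bases upstream, 17 of 76 had the start of another protein-coding gene on the other strand, or 22.4%, against 10.9% of 10289 protein-coding genes at or above 1 CPM in both libraries. Counts were at hand for 15 of the 17 neighbours, and in 12 of these pairs the splicing gene was the higher by CPM in both libraries. CPM does not correct for length, and the splicing genes had a higher median than expressed genes at large. The same count was not made for other pairs, so it says nothing particular of these. Hnrnpa2b1 and Cbx3, which encodes a heterochromatin protein, had starts 466 bases apart, and Cbx3 was at 5.23 and 10.1 CPM in replicates 1 and 2, with 67.2% of its words its own, that is, of its stretches of 25 bases those absent from every other gene. Hnrnpa1 and Cbx5, a relative of Cbx3, with starts 616 bases apart, showed the opposite order, with Hnrnpa1 at 2.09 and 36.0 CPM and Cbx5 at 323 and 436 CPM.

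Among the 18 hnRNP genes the levels spanned a wide range, with medians of 47.2 and 54.5 CPM per kb in replicates 1 and 2. Below Hnrnpa2b1 and Hnrnph1 came Hnrnpab, which binds RNA and single-stranded DNA, at 168 ± 1.88 CPM per kb. Hnrnpa0 was at 102 ± 35.8, and Hnrnpu, a large nuclear scaffold protein, and Hnrnpk, which binds runs of C, were at 89.3 ± 3.45 and 89.2 ± 1.98. Hnrnpu and Hnrnpk overlapped between the libraries. Hnrnpc, which binds runs of U, was at 67.4 ± 11.7, Hnrnpd, known for binding AU-rich elements, at 52.0 ± 0.733, and Hnrnpm at 46.1 ± 9.20 CPM per kb. The lowest by mean were Hnrnpa3 at 9.49 ± 4.06, Hnrnpa1 at 9.92 ± 12.49 and Hnrnpr at 10.8 ± 2.91 CPM per kb. Hnrnpr has 21483 bases of exon in the annotation, and per kb of coding sequence it ranked 26 of the 76.

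The count of Hnrnpa1 was the most uneven of the 76 between the libraries. Hnrnpa1, a repressor of exon inclusion and among the best known hnRNPs, had 26 reads in replicate 1 and 435 in replicate 2, or 2.09 and 36.0 CPM. Its own words made up 48.8%, and 48.4% were also in the processed pseudogene Gm10052. The handling of reads with several places in the genome is not stated, so the level of Hnrnpa1 is uncertain. The same holds for Hnrnpf, with 29.9% of its words its own, for Hnrnpk with 63.6% and for Ddx5 with 65.0%. In all, 22 of the 76 genes had under 80% of their words to themselves and 8 had under 50%.

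Hnrnpk also carries Mir7-1, a hairpin of miR-7a, in an intron. The microRNA miR-7a is known to be abundant in developing and adult islets, and the share of it made from this hairpin was not measured. Of the 76 genes 4 held miRNA hairpins, 5 in all and each on the strand of its host. The mature forms from the hosts Hnrnpk and Ddx5 are shown because their hairpins had rows with reads. Sequences are from RefSeq on GRCm38.p6, and capitals mark the seed, bases 2 to 8.
mmu-miR-7a-5p, chr13:58392841-58392863, minus strand, host Hnrnpk: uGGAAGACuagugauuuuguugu
mmu-miR-7a-1-3p, chr13:58392800-58392821, minus strand, host Hnrnpk: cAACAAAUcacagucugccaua
mmu-miR-3064-5p, chr11:106782736-106782757, minus strand, host Ddx5: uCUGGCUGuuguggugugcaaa
mmu-miR-3064-3p, chr11:106782695-106782716, minus strand, host Ddx5: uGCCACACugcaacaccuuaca

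No 2 of the 8 mature miRNAs from these hosts share a seed. The host Hnrnpk was at 361 and 372 CPM in replicates 1 and 2, while the Mir7-1 hairpin had 9 reads and 0 reads. The Mir3064 hairpin only touches an annotated exon of Ddx5, as 0.0% of the exon length of Ddx5 is overlapped on its strand. It had 47 and 86 reads, and whether these came from the transcript of its host was not tested. Counts on a hairpin do not separate the mature miRNA from its longer precursors.

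By median, SR protein genes were the higher of the 2 large families of splicing regulators, at 73.6 and 79.9 CPM per kb over 11 genes. The hnRNPs had medians of 47.2 and 54.5. In total the 18 hnRNP genes took more reads, with 0.657% and 0.678% of all reads in replicates 1 and 2, against 0.306% and 0.336% for the SR protein genes. After Srsf2 came Srsf7 at 198 ± 10.3, Srsf5 at 191 ± 18.1 and Srsf3 at 185 ± 7.63 CPM per kb, and the values of Srsf5 overlapped those of both others. Own words made up 65.3% for Srsf2, 65.0% for Srsf5 and 60.4% for Srsf3. Srsf3 and Srsf7 are also adaptors for mRNA export. Srsf6 had 313 CPM in replicate 1 and 481 CPM in replicate 2, Srsf1, the prototype of the family, 244 and 312 CPM, and Srsf11 237 and 258 CPM. Srsf9 was at 54.1 ± 16.4, Srsf4 at 33.1 ± 14.3, with 33.1% of its words its own, and Srsf10, which acts as a repressor when dephosphorylated, at 21.1 ± 7.67 CPM per kb. Srsf12, a relative of Srsf10, was the lowest at 2.86 ± 2.68 CPM per kb, with 35 reads in replicate 1 and 169 in replicate 2.

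The general splicing machinery was lower by median than either family per kb of exon, but per kb of coding sequence the U1 and Sm genes, at 127, were above the hnRNPs, at 118. The U1 proteins and the Sm ring, the core that surrounds the snRNAs, had medians of 41.2 and 27.5 CPM per kb over 10 genes. Snrnp70, a U1 protein, led with 236 and 247 CPM, or 139 ± 4.18 CPM per kb. The Sm genes Snrpg and Snrpd1 were at 92.3 ± 7.46 and 51.0 ± 5.90 CPM per kb, and the U1 gene Snrpa at 51.5 ± 8.11. Own words made up 75.9% for Snrpg and 49.6% for Snrpa. Products of the Sm genes join in equal numbers in the ring, and the Sm genes Snrpd3 and Snrpf were at 6.35 ± 1.58 and 6.25 ± 4.63 CPM per kb of exon. Per kb of coding sequence Snrpd3 was at 59.97 and 42.0 in replicates 1 and 2, close to the Sm gene Snrpb at 61.4 and 45.3, and ranked 44 of 76, where it ranked 71 per kb of exon. Of the words of Snrpf only 7.2% were its own, and 85.4% of its exon length is overlapped by genes on the other strand, Ccdc38 and 4933408J17Rik, so its level is uncertain. The U1 gene Snrpc was the lowest of all 76 by mean, with 2.17 CPM (replicate 1) and 1.65 CPM (replicate 2). Its own words made up 71.9%.

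Genes of the U2 snRNP and of 3′ splice-site recognition had medians of 24.3 and 25.6 CPM per kb over 14 genes. Sf3b1, the branch-point clamp, had 537 and 458 CPM, or 80.3 ± 8.96 CPM per kb, and its partners Sf3b2, Sf3a3 and Sf3b3 were at 72.1 ± 9.01, 54.4 ± 11.6 and 39.6 ± 9.87. The values of Sf3b1 and Sf3b2 overlapped between the libraries. The U2 genes Snrpa1 and Snrpb2 were at 47.8 ± 15.0 and 39.5 ± 3.24 CPM per kb. U2af1 and U2af2, whose products read the 3′ splice site and the pyrimidine tract before it, were lower, at 17.8 ± 5.22 and 13.1 ± 2.11 CPM per kb, with 39.7% and 55.4% of their words their own. Sf3a2 was the lowest of the class at 2.77 ± 0.462 CPM per kb. Sf3b5 was close to it at 2.88 ± 2.56, but ranked 49 of 76 per kb of coding sequence, where Sf3a2 ranked 75.

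The tri-snRNP and U5 genes had medians of 18.0 and 20.1 CPM per kb over 13 genes. Prpf8, the scaffold at the catalytic centre, had 623 CPM in replicate 1 and 836 CPM in replicate 2, or 98.0 ± 20.2 CPM per kb. Snrnp200, the helicase that unwinds U4 from U6, followed at 59.2 ± 18.3 and Prpf38b at 45.6 ± 6.20 CPM per kb. Prpf4, Prpf6, Prpf31 and Prpf3, which hold the tri-snRNP together, lay between 22.8 ± 2.22 for Prpf4 and 13.2 ± 6.06 for Prpf3, and their values overlapped in part. The kinase gene Prpf4b was the lowest at 9.09 ± 1.33. Of the other Prpf genes, Prpf39 was at 15.0 ± 3.81, Prpf19, which encodes a ubiquitin ligase of the active spliceosome, at 14.2 ± 1.14 and Prpf40b at 12.3 ± 3.01 CPM per kb. The 3 genes of the minor spliceosome, which removes a rare class of introns, had medians of 5.53 and 13.7 CPM per kb, with Snrnp48 at 23.5 ± 7.43, Snrnp35 at 8.87 ± 6.90 and Snrnp25 at 7.86 ± 3.30 CPM per kb.

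The DEAD-box helicase genes outside the snRNPs were high in both libraries. Ddx5 had 1280 and 1309 CPM in replicates 1 and 2, Ddx17, its close relative, 804 and 958 CPM, and Ddx39b, which links splicing to mRNA export, 279 and 243 CPM. In replicates 1 and 2 the level of Ddx5 per kb of exon was 3.42 and 2.93 times that of Ddx17, and per kb of coding sequence 1.69 and 1.45 times.

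Related genes were set against each other within each library, for 15 pairs. Per kb of exon Hnrnph1 was at 38.6 times the level of Hnrnph2 in replicate 1 and 34.7 times in replicate 2, and per kb of coding sequence at 21.1 and 18.96 times. With exon lengths from the full annotation the ratio was 16.6 and 14.9, and 75.7% of the words of Hnrnph2 were its own. Hnrnpl, which binds CA repeats, was below its relative Hnrnpll, a regulator of CD45 splicing in lymphocytes that the files list under its older symbol Hnrpll. Hnrnpl was at 35.3 and 31.3 CPM per kb in replicates 1 and 2, and Hnrpll at 81.4 and 75.4. The ratio of Hnrnpl to Hnrpll was 0.433 and 0.415 per kb of exon, 0.376 and 0.36 per kb of coding sequence and 0.731 and 0.70 with exon lengths from the full annotation. All of the words of Hnrpll were its own. Hnrnpd was below Hnrnpab, with ratios of 0.309 and 0.31 per kb of exon, against 0.706 and 0.709 per kb of coding sequence. Srsf4 was below Srsf6, at ratios of 0.509 and 0.177 per kb of exon and 0.215 and 0.0746 per kb of coding sequence. Prpf38a was below Prpf38b, at 0.374 and 0.123 per kb of exon. The level of Srsf10 per kb of exon was 27.8 and 3.31 times that of Srsf12, and per kb of coding sequence 56.0 and 6.67 times.

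For other pairs the order was not settled. Hnrnpa1 was below Hnrnpa3 in replicate 1, at a ratio of 0.165, and above it in replicate 2, at 1.52, per kb of exon. In replicate 2 the ratio was 0.557 by CPM, 0.953 with the full annotation and 0.566 per kb of coding sequence, so that on these scales Hnrnpa1 was below Hnrnpa3 in both libraries. Srsf1 over Srsf9 was 1.03 and 0.856 per kb of exon, but 4.33 and 3.59 per kb of coding sequence. U2af1 was above U2af1l4 in both libraries, by 2.29-fold and 1.46-fold, yet only 20.3% of the words of U2af1l4 were its own. The orders of Hnrnpul1 and Hnrnpul2, Srsf3 and Srsf7, Srsf5 and Srsf6, and Snrpa and Snrpb2 also turned with the length used.

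**Figure D2:**
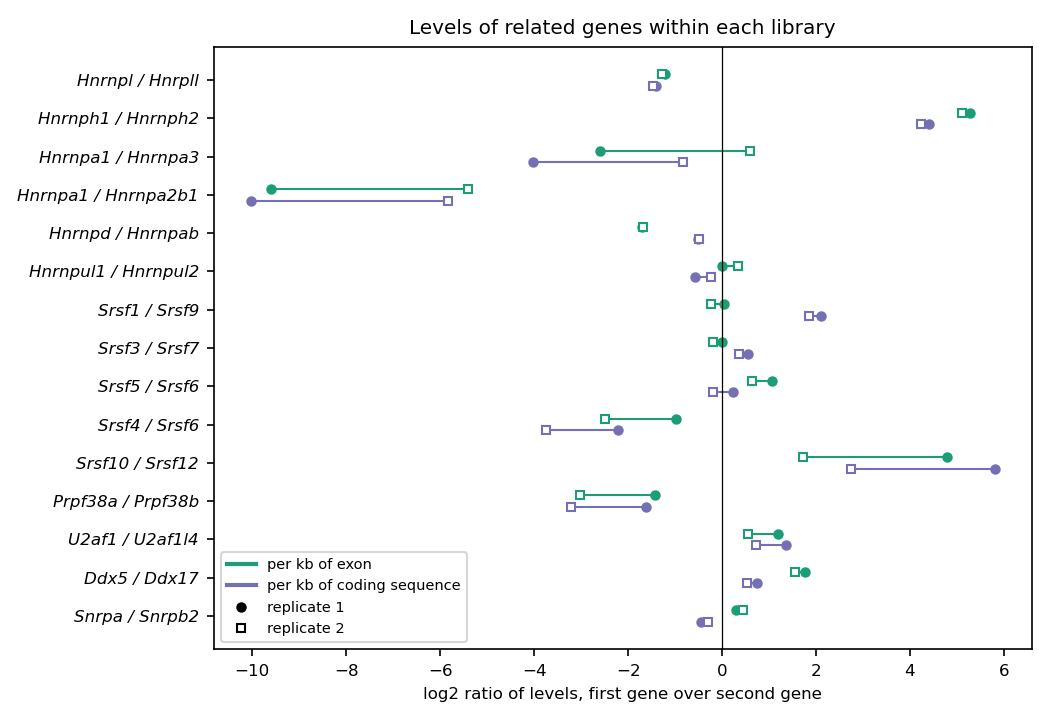
Log2 ratio of the levels of related genes, the first named over the second, for 15 pairs, with replicate 1 as a circle, replicate 2 as a square, levels per kb of exon in green and per kb of coding sequence in purple. Hnrnph1 lies far above Hnrnph2 and Hnrnpl below Hnrpll on both scales, while Srsf1 over Srsf9 lies near 0 per kb of exon and well above it per kb of coding sequence.

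The spread of splicing genes between the libraries was below that of genes at large. The median absolute log2 ratio, replicate 1 over replicate 2, was 0.37 over the 76 genes, beside 0.95 over all 13416 genes with at least 10 reads. The biological coefficient of variation, the square root of the common dispersion from edgeR, was 0.369 for the splicing genes and 0.934 for all genes tested. Among genes with at least 100 reads it was 0.37 and 0.767. Spread falls with level, so the median absolute log2 ratio was also read within ranges of mean CPM. From 10 to 100 CPM the median absolute log2 ratio was 0.43 over 37 splicing genes and 0.84 over 6762 genes, and from 100 to 1000 CPM it was 0.27 over 30 splicing genes and 0.39 over 2269 genes. The correlation of log2 CPM between the libraries across genes, which are not independent replicates and share both libraries, was r = 0.928 over the 76 splicing genes and 0.694 over all genes tested. The coefficient of variation and the correlation were not read within ranges of level. These differences in spread were not tested.

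**Figure D3:**
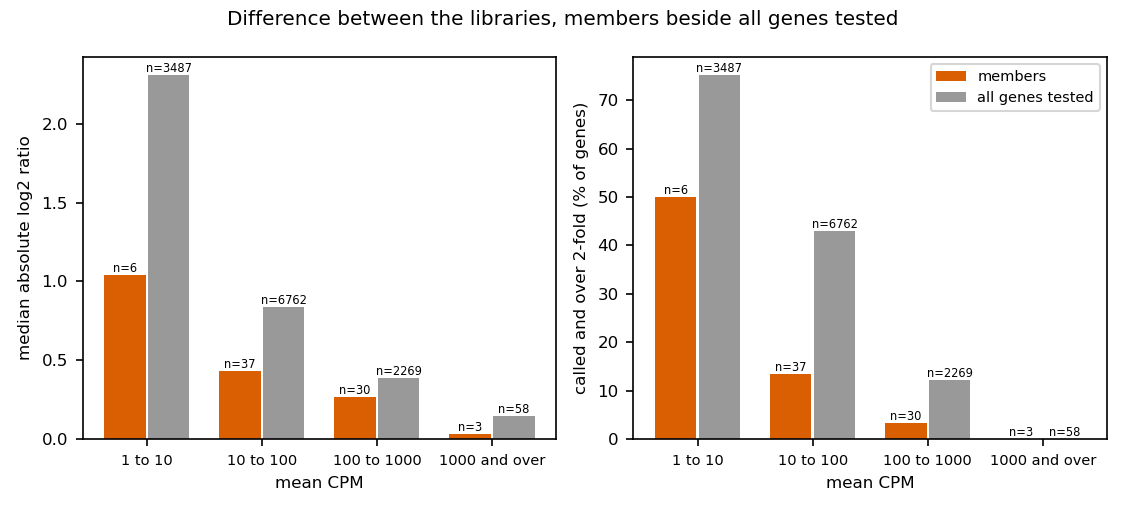
Median absolute log2 ratio between the libraries (left) and percent of genes called different and over 2-fold apart (right), by range of mean CPM, with splicing genes in orange, all genes tested in grey and the number of genes above each bar. In each range below 1000 CPM the orange bar is the lower in both panels, and above 1000 CPM no gene of either set was over 2-fold apart.

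By a two-sided exact binomial test of the reads with Benjamini-Hochberg adjustment over all genes tested, 66 of 76 splicing genes differed between these libraries beyond counting error, against a background of 85.8%. The share is near the background, so the count says nothing particular of them. Of the 76 genes, all of them tested, 28 were called higher in replicate 1 and 38 in replicate 2, against 41.7% and 44.1% of all genes tested. With a difference over 2-fold also required, 9 of 76 or 11.8% were called, against 48.2% of all genes. The median log2 ratio was -0.08 over the splicing genes and -0.04 over all genes tested. The test compares these libraries, not conditions.

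The 10 genes that did not differ beyond counting error included some of the most abundant. They were Hnrnph1, Hnrnpab, Hnrnpd, Hnrnpk, Hnrnph2, Ddx5, Snrnp70, Sf3b4, Sf3a2 and Snrpc. Hnrnph1 had 1066 CPM in replicate 1 and 1050 CPM in replicate 2, Hnrnpab 464 and 472 CPM and Hnrnpd 351 and 358 CPM. Sf3a2 had 86 reads in replicate 1 and 66 in replicate 2, and Snrpc 27 and 20 reads. Of the 76 genes 51 lay within 1.5-fold between the libraries and 13 within 1.1-fold.

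Of the 9 genes over 2-fold apart 3 had means under 10 CPM, 5 from 10 to 100 CPM and 1 above. Hnrnpa1 was 17.2-fold higher in replicate 2, with a log2 ratio of -4.003 and an adjusted p of 2e-98 by the exact binomial test. Srsf12 was at 2.81 and 14.0 CPM and Sf3b5 at 4.10 and 18.0 CPM, with log2 ratios of -2.25 and -2.09. The minor spliceosome gene Snrnp35 was at 5.23 and 18.0 CPM, U2af1l4 at 5.63 and 13.4 CPM, and the U2 helicase gene Ddx46 at 61.9 and 171 CPM, with a log2 ratio of -1.47. Toward replicate 1 lay Snrpf, at 8.199 and 2.56 CPM, Prpf38a at 23.4 and 9.34 CPM and the Sm gene Snrpd2 at 78.6 and 37.4 CPM, with log2 ratios of 1.62, 1.31 and 1.07. Hnrnpa1, U2af1l4, Snrpf and Snrpd2 had under 80% of their words to themselves, and the other 5 had at least 80%. The U2 gene Sf3a1, at 132 and 70.3 CPM, lay just below the 2-fold line toward replicate 1.

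Counts by role are read against the background of 85.8% called, with 41.7% toward replicate 1 and 44.1% toward replicate 2. Of the U1 and Sm genes 7 of 10 were called higher in replicate 1 and 1, Snrpa, higher in replicate 2, at a median log2 ratio of 0.37. Of the SR protein genes 8 of 11 were called higher in replicate 2 and 3, Srsf3, Srsf4 and Srsf10, in replicate 1, at a median of -0.12. All 3 minor spliceosome genes were called higher in replicate 2, at a median of -0.86. The hnRNPs had 5 of 18 higher in replicate 1 and 8 in replicate 2, the U2 class 4 and 8 of 14, and the tri-snRNP and U5 class 5 and 8 of 13. With 2 libraries an exact permutation cannot give a p below 0.5, and no difference between classes was tested.

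**Figure D4:**
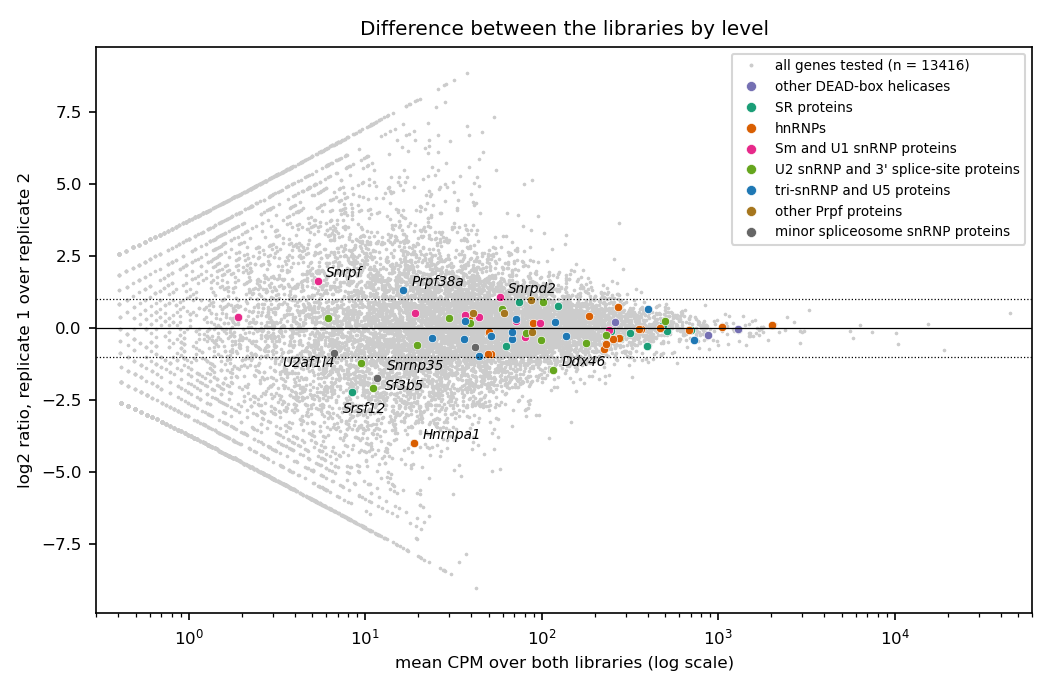
Log2 ratio of replicate 1 over replicate 2 against mean CPM on a log scale, with the 76 splicing genes coloured by role, all 13416 genes tested in grey and dotted lines at a 2-fold difference. Most coloured points lie between the dotted lines, and the 9 outside them carry their names, with Hnrnpa1 the lowest of the coloured points at -4.003.

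Other genes of the splicing pathway were read in 12 lists of 121 symbols. Of the 117 with a row, 114 reached 1 CPM in both libraries, and of 116 tested 102 were called, 52 higher in replicate 1 and 50 higher in replicate 2, and 25 of these were over 2-fold apart. Over all genes tested 85.8% were called, 41.7% and 44.1% by direction, and 48.2% were called and over 2-fold apart, so the share called is near the background. All 7 kinases of SR proteins reached 1 CPM in both libraries. Clk1 led with 521 and 486 CPM, or 290 and 271 CPM per kb in replicates 1 and 2, followed by Clk4 at 69.5 and 84.5, and Srpk3, a kinase known from muscle, was the lowest at 0.73 and 10.5 CPM per kb. Of 8 genes of SR-related proteins all 8 did, with Srrm2, a large protein of nuclear speckles, at 1664 and 1427 CPM and at 188 and 161 CPM per kb. Tra2a was at 81.5 and 86.4 and Rnps1 at 3.50 and 12.52 CPM per kb. Of 17 hnRNP-type genes all 17 did. Ptbp1, a repressor of neuronal exons, was at 95.5 and 144 CPM per kb, Rod1, now named Ptbp3, at 103 and 113, and Ptbp2, the neuronal form, at 11.04 and 17.6, while Pcbp3 was the lowest at 0.694 and 8.40. Own words made up 56.1% for Ptbp1 and 64.6% for Rnps1, so their levels are less certain.

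The genes listed as splice-site factors were led by Sf1, the branch-point binding protein, at 62.4 and 91.5 CPM per kb and Puf60 at 47.6 and 88.6. Dhx35, a DEAH-box gene counted in this list only, was the lowest at 12.4 and 7.88. All 11 genes of the list were at or above 1 CPM in both libraries. All 17 genes of the Prp19 complex and the catalytic steps were as well, led by Cwc15 at 60.9 and 130 and Syf2 at 51.7 and 68.0 CPM per kb, down to Ppil1 at 4.62 and 7.69. Of the 4 DEAH-box ATPases listed apart from Dhx35, 3 were. Dhx15, which takes the spliceosome apart, was at 81.5 and 75.9 CPM per kb, Dhx38 at 84.8 and 40.7 CPM, and Dhx16 at 0.96 and 12.2 CPM. All 8 other tri-snRNP genes reached 1 CPM in both libraries. Eftud2, the GTPase of the U5 snRNP, was at 17.1 and 28.9, Nhp2l1 at 24.0 and 12.3 and Usp39, the lowest, at 4.51 and 8.62 CPM per kb.

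Of 6 measured genes of the Lsm ring, which binds the end of U6, all 6 reached 1 CPM in both libraries, from Lsm3 at 28.9 and 26.7 and Lsm4 at 38.7 and 14.4 CPM per kb to Lsm7 at 1.21 and 2.64, and 3 of 6 were called, against 85.8% of all genes tested. Of 16 genes of snRNP assembly 15 reached 1 CPM in both, led by Strap at 75.0 and 65.7 and Gemin6 at 53.5 and 43.5 CPM per kb. Gemin8 was the lowest, with 5.23 CPM (replicate 1) and 0.579 CPM (replicate 2), and Smn1, the gene of the complex that loads the Sm ring, was at 9.24 and 12.1 CPM. All 5 genes of the exon junction complex reached it, with Magoh at 112 and 185, Casc3 at 64.9 and 19.2 and Magohb at 11.3 and 11.05 CPM per kb. Of 6 measured minor spliceosome proteins 5 reached it, led by Zcrb1 at 110 and 122 and Zmat5 at 19.2 and 4.801 CPM per kb, and Armc7 had no read in replicate 1 and 0.66 CPM in replicate 2, where a count of 0 allows up to 0.241 CPM in replicate 1 by counting error alone. All 12 genes of mRNA export and cap binding reached it, from Thoc7 at 120 and 195 and Nxf1, the export receptor, at 66.4 and 51.2 CPM per kb to Nxt1 at 3.82 and 4.07. Own words made up 79.0% for Lsm3, 75.0% for Gemin6, 73.1% for Lsm7 and 71.3% for Gemin8. They made up 69.9% for Thoc7, 60.6% for Magohb and 58.7% for Zmat5, so the levels of these genes are less certain.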

How the data were processed

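Each sample came with raw read counts by gene symbol, as deposited. FastQC, cutadapt, TopHat2 (2.0.4), Cufflinks (2.0.2), DESeq and the build mm9 are named, without role or order, in the submitters' processing notes. Which program and annotation made the counts, whether strand was used and how reads with several possible places were treated is not stated there. Near-identical copies and overlapping or antisense genes are thus uncertain. Counts were scaled to library size as CPM with TMM factors (0.9956 and 1.004) from edgeR 4.0.16 in R 4.3.3. Log2 ratios used a prior count of 2. Genes reaching 10 reads in total were tested by an exact binomial test, two-sided, on the TMM-scaled totals, and p-values were adjusted by Benjamini-Hochberg and called under 0.05. When tested on simulated Poisson counts for 13416 genes, it called 81 of 100 changes of 2-fold, 95 of 100 of 4-fold, and 12 among 13216 genes left unchanged. Such counts have no spread beyond counting error, so the 12 do not measure false calls in the real libraries. Limits from a count of 0 are 3 counts and cover counting error only.

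Exon and coding lengths, neighbours and shared 25-base words came from the basic set of GENCODE M21 on GRCm38, not mm9, where 22804 symbols, or 97.9%, and all 76 splicing genes were matched by symbol or RefSeq synonym. Coding length is that of the annotated coding sequence, in place of the planned length of the reference protein; no protein sequences were used here. A single promoter window per gene, the first listed by RefSeq, was used. The splicing genes, roles, pairs and pathway lists were chosen with earlier results of these data known, and the motifs, miRNA hosts, neighbours and shared words were examined after the counts were seen. Any splicing gene could be named, but 1 is not reported here and stays in the counts and medians. Of each pathway list the highest 2 and the lowest per kb of exon were named; Ptbp2 and Smn1 fall outside that rule and were chosen after their values were seen.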

Additional observations from a re-analysis of the deposited data

How the results depend on the processing

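No paired analysis was possible because there is 1 group and no contrast between groups. Counts of splicing genes detected or called, their median log2 ratio, spread and median level stayed within the limits set for each under plain column totals, DESeq2 1.42.0 size factors, totals without the 10 most abundant genes, other count filters and detection limits, and a prior count of 0.5. The exception was requiring a 2-fold difference, which gave 9 genes, 3 toward replicate 1 and 6 toward replicate 2. Keeping only the 54 genes with at least 80% of their words their own, chosen after seeing the data, gave a median log2 ratio of -0.14. Leaving out each replicate gave median levels per kb of 27.5 to 41.2 for the U1 and Sm class, 24.3 to 25.6 for the U2 class, against 20.6 as the median of gene means, and 5.53 to 13.7 for the minor spliceosome class. In the order of classes the U1 and Sm class moved from 4 to 7 and the other Prpf genes from 7 to 4 by CPM, and per kb of coding sequence the U1 and Sm class was 3 and the hnRNPs 4.

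Log2 ratios of pairs turned round by CPM, with the full annotation and per kb of coding sequence. In that order they were -0.20, -0.48 and -0.40 for Hnrnpul1 over Hnrnpul2, 2.17, 0.38 and 1.98 for Srsf1 over Srsf9, and -0.016, -0.069 and -0.37 for Snrpa over Snrpb2. Srsf5 over Srsf6 was -0.30 by CPM and -0.032 with the full annotation, and Srsf3 over Srsf7 0.46 per coding kb. Leaving out each replicate gave -2.60 to 0.60 for Hnrnpa1 over Hnrnpa3 and -0.22 to 0.045 for Srsf1 over Srsf9. Counting error is widest for Snrpc, with 27 and 20 reads, the fewest in total.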
